A study of Rattus norvegicus with 24 samples.

Results

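The miR-378 family was represented on the array by 2 miRNAs, rno-miR-378a-5p and rno-miR-378b, out of 719 rat miRNAs. They were taken as every miRNA whose name in the scanner files began with the stem rno-miR-378, whatever the arm. Both were among the 283 miRNAs that passed the filter on dim probes. rno-miR-378b was chosen by its measured difference between the highest dose and control, a small rise, so the comparison of that dose with control is given below as a description and carries no test. The 3p arm of miR-378a was not analysed here.

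Total RNA from the lungs of 24 Fischer-344 rats was hybridised to single-colour Agilent miRNA arrays, with 1 array per rat. The control group breathed filtered clean air, and the other 3 groups inhaled hexanal, a volatile aldehyde, at 600, 1000 or 1500 ppm for 4 h a day on 5 days a week over 5 weeks. Each group held 3 males and 3 females, obtained at 7 to 8 weeks of age, with no genetic modification named. The sample labels gave doses in ppm and the treatment protocol gave the same numbers in mg per cubic metre, so that the ppm value serves as the name of the dose. The controls shared the handling and chamber conditions of the exposed rats as far as the labels state. Rats are named below by sex and by the number in their label.

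The miR-378 locus lies inside Ppargc1b, the gene for the transcriptional coactivator PGC-1beta, and its hairpin gives a 5p and a 3p mature strand. A miRNA finds its targets mainly through its seed, the bases next to its 5′ end, and represses the messenger RNAs it pairs with. miR-378 strands are known for roles in mitochondrial energy metabolism, lipid handling and muscle, and are abundant in skeletal muscle and heart. rno-miR-378b is encoded at a separate locus on another chromosome.

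The mature strands of miR-378a are shown because the array measured only the first of them, and those of miR-210-3p and miR-434-3p because they came next after the other member in likeness to each of them once slide means were subtracted. Capitals mark the seed, bases 2 to 8 counted from the 5′ end. The sequences are those of RefSeq on the assembly GRCr8, which held a mature sequence for 1 of the 2 members.
rno-miR-378a-5p: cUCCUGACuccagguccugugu
rno-miR-378a-3p: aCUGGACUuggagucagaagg
rno-miR-210-3p: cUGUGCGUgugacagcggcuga
rno-miR-434-3p: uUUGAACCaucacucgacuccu

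rno-miR-378a-5p lies on the minus strand at chr18:57128962-57128983 and rno-miR-378a-3p at chr18:57128925-57128945, with 16 bases between the arms. Both positions fall within the span of Ppargc1b in the same assembly. The 5p strand was 22 bases long with a GC content of 59.1%, and the 3p strand was 21 bases long with 52.4%. Among the 693 mature miRNAs of the table, no other miRNA carried the seed of either arm, and the seeds of miR-210-3p and miR-434-3p were likewise carried by 0 others. The mature sequence of rno-miR-378b was not among them, so its seed could not be compared.

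Each member was measured by 2 probes with 10 spots each per array, which gave 480 spots per member over the study. rno-miR-378b was well above background in 480 of 480 spots. rno-miR-378a-5p was a dim feature, well above background in 445 of 480 spots (92.7%), and 19 of its 457 spots kept after outlier removal (4.16%) lay under the floor. Its second probe, A_26_P00002165, was above background on 24 of 24 arrays, and its first probe, A_26_P00002164, on 22. The exceptions were female 27 at 600 ppm, with 1 of 10 spots above background, and female 38 at 1500 ppm, with 3. No spot of either member was saturated. The median SD among the spots of 1 probe on 1 array was 0.18 and 0.20 on the log2 scale for the probes of rno-miR-378a-5p and 0.05 for each probe of rno-miR-378b.

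The arrays sat on 3 slides of 8 arrays, and the slides did not share the groups evenly. Slide 1 carried 8 males, all the control and 600 ppm males with 2 of the 1000 ppm males. Slide 2 was mixed, with every control female (3) and every 1500 ppm male (3) beside female 26 (600 ppm) and male 13 (1000 ppm). Slide 3 carried the remaining 8 females, all of them exposed. Of the 283 miRNAs that passed the filter, between 221 and 282 were above background on an array. Marker miRNAs were checked, and 2 of 2 endothelial (miR-126a) and 5 of 5 epithelial (miR-200 family) miRNAs were above background on all arrays. Of 2 brain miRNAs 0 passed the filter. The liver miRNA rno-miR-122-5p passed it but was not above background on all arrays. Of 7 striated muscle miRNAs 4 passed it, and 2 were above background on all arrays.

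rno-miR-378a-5p differed far more between slides than between doses. Its level, the log2 of the scaled intensity, ran from 3.64 to 3.92 on slide 1 with a median of 3.79. It ran from 4.28 to 4.60 on slide 2 with a median of 4.41, and from 4.33 to 4.71 on slide 3 with a median of 4.39. All 8 rats of slide 1 lay below all 16 rats of the other slides, a pattern that 25 of the 283 miRNAs tested (8.83%) shared. On slide 1 the scaled intensity of rno-miR-378a-5p, 12.5 to 15.2, lay near the floor of 11.3.

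In a fit that allowed for dose and sex, the level of rno-miR-378a-5p differed between slides (limma F = 32.6, adjusted p = 7.16e-06). The estimate was 0.74 ± 0.10 (SE) higher on slide 2 than on slide 1 and 0.83 ± 0.16 higher on slide 3 than on slide 1, which corresponds to 1.68-fold and 1.77-fold. Slide passed the test for 136 of the 283 miRNAs (48.1%), so that a slide difference was common on these arrays. In the deposited table of unscaled signals the test over all slides passed (adjusted p = 0.0463), but neither contrast with slide 1 did, at 0.33 ± 0.16 for slide 2 (adjusted p = 0.128) and 0.78 ± 0.27 for slide 3 (adjusted p = 0.150). There the levels of slide 1, at 14.7 to 24.7 units, overlapped those of the other slides, at 19.4 to 31.4 units.

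rno-miR-378b showed no such separation. Its level ran from 7.51 to 7.84 on slide 1, from 7.64 to 7.93 on slide 2 and from 7.59 to 8.02 on slide 3, so that all 3 slides overlapped. Slide did not pass the test (limma F = 1.31, adjusted p = 0.367), with estimates of 0.14 ± 0.08 (95% interval -0.04 to 0.31) for slide 2 and 0.17 ± 0.14 (-0.12 to 0.47) for slide 3 against slide 1. It passed with the percentile taken over all probes (adjusted p = 0.0223), with normexp correction (0.0266) and in the unscaled table (0.0061). Without allowance for dose or sex, slide accounted for 89.0% of the variance of rno-miR-378a-5p over the 24 rats. For rno-miR-378b it was 32.6%, against a median of 37.6% over the 283 miRNAs. These shares overlap with those of sex and dose, which were spread unevenly over the slides.

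**Figure D1:**
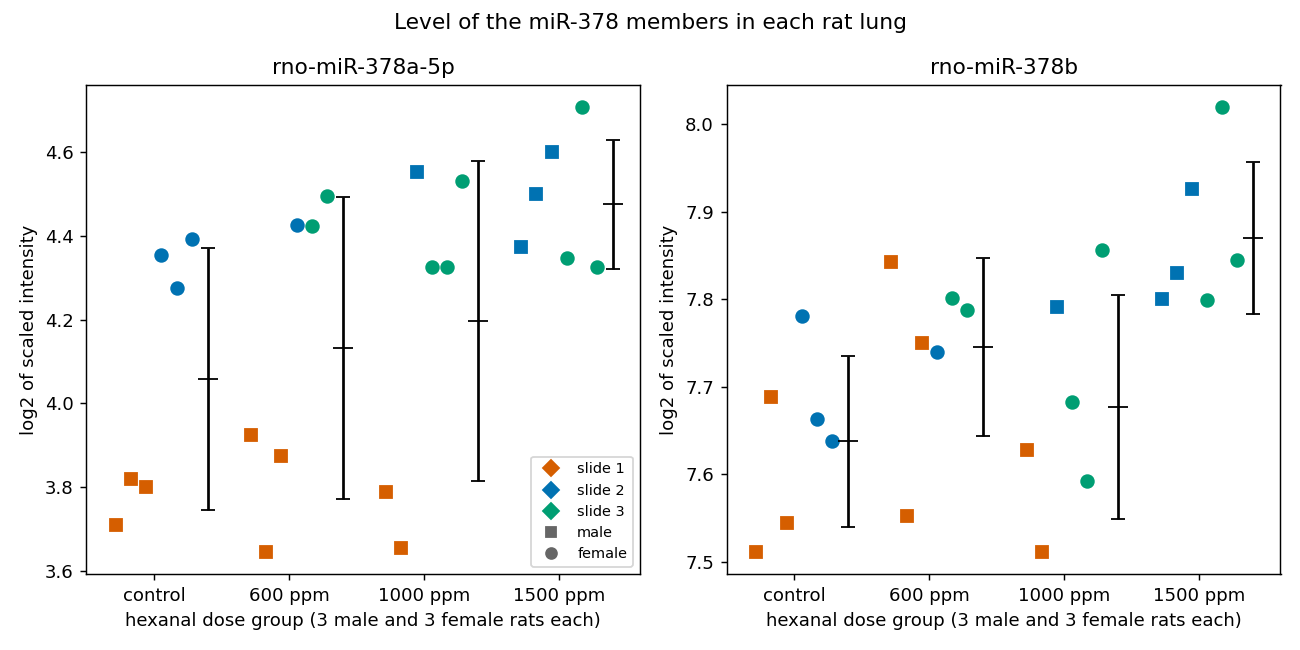
Level of rno-miR-378a-5p (left) and rno-miR-378b (right), as log2 of the scaled intensity, in each of 24 rats by dose group; colours mark the slide, squares males and circles females, and the black bar the mean ± SD of 6 rats. The slide 1 rats lie at 3.64 to 3.92 for rno-miR-378a-5p, under every other rat, and mix with the others for rno-miR-378b.

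The levels in each group show how this slide split runs through the dose groups. In control males 1, 2 and 3, all on slide 1, rno-miR-378a-5p stood at 3.71, 3.82 and 3.80. In control females 21, 22 and 23, all on slide 2, it stood at 4.35, 4.28 and 4.39. The sexes therefore did not overlap among controls, and they shared no slide. How many other miRNAs separated in this way was not counted. With slides ignored, the limma test of sex over all doses passed for 124 of 283 miRNAs (43.8%).

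At 600 ppm, the males 6, 7 and 8 on slide 1 had levels of 3.92, 3.64 and 3.87 of rno-miR-378a-5p. The females 26, 27 and 28 had 4.43, 4.43 and 4.50, the first of them on slide 2. As in controls, every male lay below every female, and the sexes shared no slide.

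At 1000 ppm, the males 11 and 12 on slide 1 had 3.79 and 3.65, whereas male 13 on slide 2 had 4.55. Male 13 thus sat with the females 31, 32 and 33, which had 4.33, 4.33 and 4.53, and apart from the other males of its dose. The SD of the 3 males was 0.49, against 0.06 in control males.

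At 1500 ppm, no rat was on slide 1. The males 16, 17 and 18 on slide 2 had 4.37, 4.50 and 4.60 of rno-miR-378a-5p, and the females 36, 37 and 38 on slide 3 had 4.35, 4.71 and 4.33. Here the sexes overlapped, with all 6 rats above the males of slide 1.

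For rno-miR-378b, the 6 controls ran from 7.51 to 7.78 with a median of 7.65. Rats at 600 ppm ran from 7.55 to 7.84 with a median of 7.77, and those at 1000 ppm from 7.51 to 7.86 with a median of 7.66. All of these ranges overlapped widely. Male 7 at 600 ppm stood at 7.55, below the other 5 rats of its group, which averaged 7.78 ± 0.04 (SD).

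Neither of the 2 members passed the test at 600 or 1000 ppm, and neither did any other miRNA. At 600 ppm, rno-miR-378b differed from control by 0.11 ± 0.06 (95% interval -0.03 to 0.24, limma adjusted p = 0.996) and rno-miR-378a-5p by 0.07 ± 0.17 (-0.29 to 0.44, adjusted p = 0.996). Calls at that dose numbered 0 of 283 (0%), with 5 (1.77%) at an unadjusted p below 0.05, and the unadjusted p of rno-miR-378b, 0.108, ranked 14 of 283. The interval was narrower for rno-miR-378b than for rno-miR-378a-5p. The controls also served in the contrast that chose rno-miR-378b, so its values and rank at 600 ppm are not independent of that choice.

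At 1000 ppm, rno-miR-378b differed from control by 0.04 ± 0.06 (95% interval -0.09 to 0.17, limma adjusted p = 0.991) and rno-miR-378a-5p by 0.14 ± 0.17 (-0.22 to 0.50, adjusted p = 0.991). Calls numbered 0 of 283 (0%), with 17 (6.01%) at an unadjusted p below 0.05. With sex and slide as covariates the estimates were -0.0028 ± 0.0757 and -0.0268 ± 0.0871, so that the direction at this dose was not settled for either member. The 2 doses were set against the same 6 control rats.

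No difference between the 2 lower doses passed the test for either member. From 600 to 1000 ppm, rno-miR-378b differed by -0.07 ± 0.06 (95% interval -0.20 to 0.06, limma adjusted p = 0.992) and rno-miR-378a-5p differed by 0.06 ± 0.17 (-0.30 to 0.43, adjusted p = 0.992). Calls numbered 0 of 283 (0%), with 7 (2.47%) at an unadjusted p below 0.05. Within males of slide 1 the difference from 600 to 1000 ppm was -0.14 ± 0.10 for rno-miR-378b and -0.09 ± 0.10 for rno-miR-378a-5p, and within females of slide 3 it was -0.08 ± 0.10 and -0.07 ± 0.13.

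The 1500 ppm group is the one for which rno-miR-378b was picked. Its males 16, 17 and 18 had rno-miR-378b levels of 7.80, 7.83 and 7.93, and its females 36, 37 and 38 had 7.80, 8.02 and 7.84. The 6 rats lay between 7.80 and 8.02, just above the highest control, female 21 at 7.78. This contrast chose rno-miR-378b, so nothing is read from the lack of overlap, whose share over all miRNAs was 1 of 283 (0.353%). Calls of any direction at this dose numbered 0 of 283 (0%), with 26 (9.19%) at an unadjusted p below 0.05.

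On the log2 scale rno-miR-378b was 0.23 ± 0.06 (SE) higher at 1500 ppm than in controls, or 1.17-fold, and rno-miR-378a-5p was 0.42 ± 0.17 higher, or 1.34-fold. The slides bear on both values, since 3 of the 6 controls and 0 of the 6 rats at 1500 ppm were on slide 1. With sex and slide as covariates the difference was 0.15 ± 0.09 for rno-miR-378b and 0.0045 ± 0.104 for rno-miR-378a-5p. In the unscaled table the rno-miR-378b difference was -0.03, and group ranges were 203 to 334 units in controls and 222 to 298 at 1500 ppm.

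On slide 2 alone, the 3 males at 1500 ppm and the 3 control females can be set side by side, although they differ in sex. rno-miR-378b stood at 7.80, 7.83 and 7.93 in the males and at 7.78, 7.66 and 7.64 in the females. rno-miR-378a-5p stood at 4.37, 4.50 and 4.60 in the males and at 4.35, 4.28 and 4.39 in the females, with an overlap. Dose and sex cannot be told apart on this slide.

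Males had less rno-miR-378a-5p than females when slides were ignored. The 12 males ran from 3.64 to 4.60 with a median of 3.85 and the 12 females from 4.28 to 4.71 with a median of 4.37. The difference, males minus females, was -0.39 ± 0.09 (95% interval -0.59 to -0.20, limma adjusted p = 0.00327), or 0.762-fold. Calls numbered 124 of 283 (43.8%), with 78 (27.6%) lower in males.

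This difference went with the slides. With slide as a block it was 0.16 ± 0.12 (95% interval -0.09 to 0.41, adjusted p = 0.471), and with slide as a random block it was -0.12 ± 0.12 (adjusted p = 0.606). On slide 2, which held both sexes, the 4 males ran from 4.37 to 4.60 and the 4 females from 4.28 to 4.43, and the difference was 0.14 ± 0.06 (adjusted p = 0.219). The males of that slide were at 1000 or 1500 ppm and the females were controls or at 600 ppm, so that sex and dose cannot be told apart there. With slide as a block 10 of 283 miRNAs (3.53%) passed the test of sex, and 20 (7.07%) did within slide 2.

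For rno-miR-378b the 12 males ran from 7.51 to 7.93 and the 12 females from 7.59 to 8.02. The difference, males minus females, was -0.07 ± 0.04 (95% interval -0.16 to 0.02, limma adjusted p = 0.191) and did not pass the test. It was 0.05 ± 0.10 with slide as a block and 0.13 ± 0.05 within slide 2 (adjusted p = 0.184), so that its sign also turned.

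**Figure D2:**
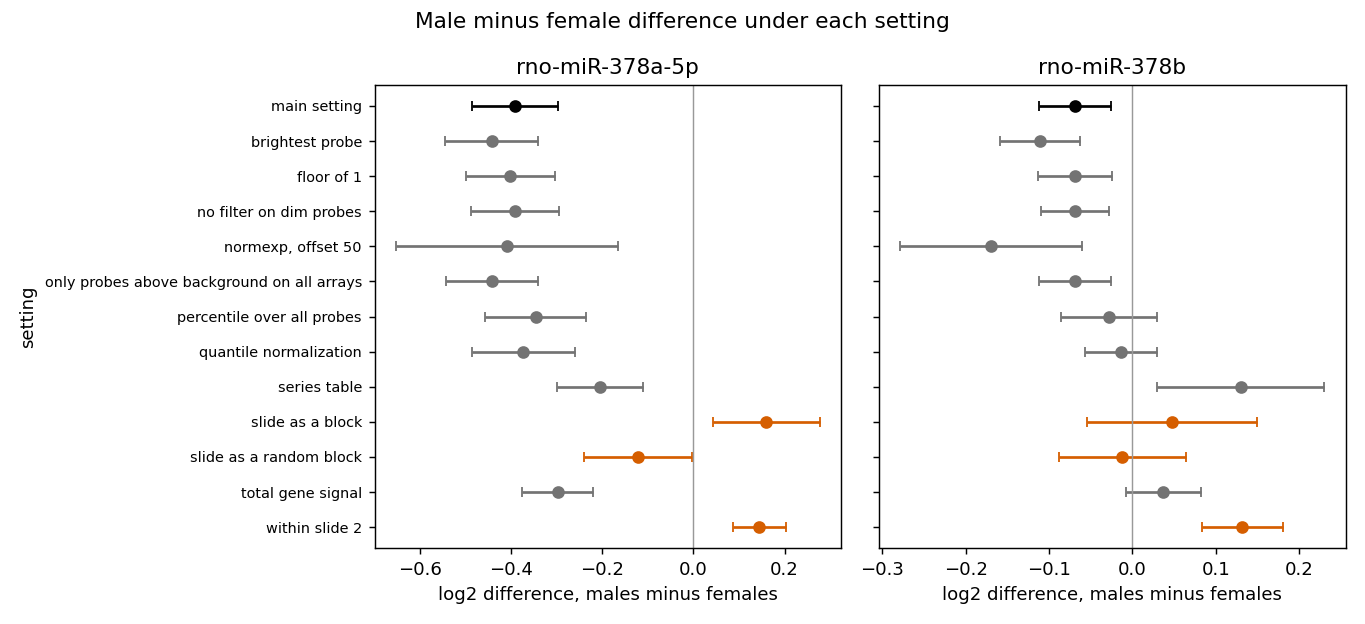
Male minus female log2 difference (horizontal axis) with its SE for rno-miR-378a-5p (left) and rno-miR-378b (right) under each setting named on the vertical axis; black marks the main setting and orange those that use the slide. For rno-miR-378a-5p the value moves from -0.39 to 0.16 with slide as a block.

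Over all doses, no difference between the sexes in the response to dose passed the test for either member. The interaction gave limma F = 3.45 (adjusted p = 0.0988) for rno-miR-378a-5p and F = 0.13 (adjusted p = 0.956) for rno-miR-378b, where 71 of 283 miRNAs (25.1%) passed. Without male 13 at 1000 ppm, the interaction of rno-miR-378a-5p passed (F = 11.4, adjusted p = 0.00165). Neither fit allowed for slide, and male 13 was the only 1000 ppm male not on slide 1. Over all rats that interaction did not pass with slide as a block (limma adjusted p = 0.981) or as a random block (0.839).

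Taken for 1500 ppm alone, the response of rno-miR-378a-5p in males exceeded that in females by 0.60 ± 0.23 (limma adjusted p = 0.0487), as did a difference of either sign in 100 of 283 miRNAs (35.3%). The males at 1500 ppm, at 4.37 to 4.60, lay above the control males, at 3.71 to 3.82, while the females at 1500 ppm, at 4.33 to 4.71, overlapped the control females, at 4.28 to 4.39. Those males were on slide 2 and the control males on slide 1, and with slide as a block the value was -0.20 ± 0.25 (adjusted p = 0.868). Leaving out 1 rat ended the call in 18 of 24 cases, with adjusted p from 0.00221 to 0.101, and of the 11 other alternatives 4 kept it. For rno-miR-378b the same term was 0.08 ± 0.13 (adjusted p = 0.659), but in the unscaled table it was -0.80 ± 0.23 and passed (adjusted p = 0.0103). There the control males, on slide 1, had 328 to 334 units and the control females, on slide 2, 203 to 247. The rats of this term are also those of the contrast that chose rno-miR-378b, so nothing is read from the call.

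The difference between the members on the same array is free of the scaling between arrays, except through the floor. Under that floor lay 19 of the 457 kept spots of rno-miR-378a-5p and 0 of rno-miR-378b. It is not a ratio of RNA amounts, since 2 probes may differ in brightness, and only its change between rats is read. rno-miR-378b minus rno-miR-378a-5p ran from 3.74 to 3.92 on slide 1, from 3.24 to 3.43 on slide 2 and from 3.26 to 3.52 on slide 3. Slide 1 did not overlap the others, and slide, without allowance for dose or sex, accounted for 92.4% of the variance. How many other pairs of miRNAs did so was not counted. Among single miRNAs, 53 of 283 (18.7%) had levels on slide 1 that did not overlap those of slides 2 and 3.

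Between 1000 and 600 ppm this difference moved by -0.13 log2, which did not pass a two-sided exact permutation test of 6 against 6 rats (p = 0.286, adjusted p = 0.286 over 2 comparisons). Between males and females it moved by 0.32 (two-sided permutation test with 100000 draws, p = 0.00082, adjusted p = 0.00164). Within slide 2, with 4 rats of each sex, it moved by -0.013 (exact permutation p = 0.886). The smallest value in the males, 3.24, was that of male 13, and the other values under 3.5 among males were those of the 3 rats at 1500 ppm.

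**Figure D3:**
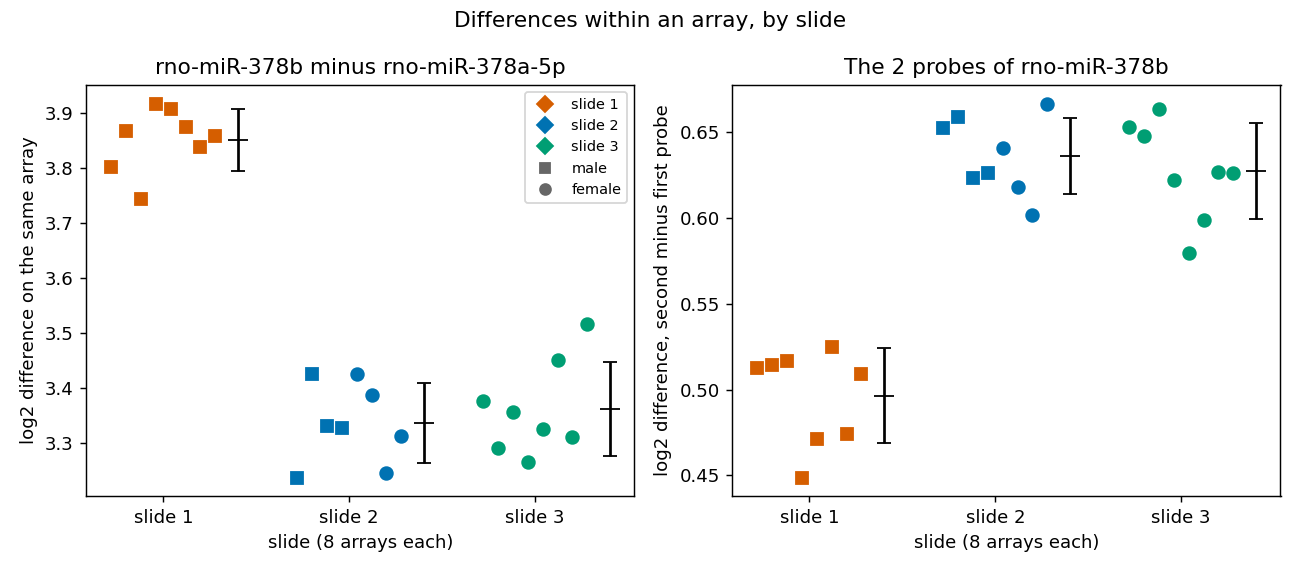
Log2 difference on the same array between rno-miR-378b and rno-miR-378a-5p (left) and between the second and first probe of rno-miR-378b (right), by slide, with squares for males, circles for females and the mean ± SD of 8 arrays in black. Slide 1 stands apart from slides 2 and 3 in both panels, at 3.74 to 3.92 and at 0.45 to 0.52.

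The difference between the 2 probes of rno-miR-378b also varied with the slide, which was seen after the values were examined. Probe A_26_P00001733 exceeded probe A_26_P00001732 by 0.45 to 0.52 on slide 1, by 0.60 to 0.67 on slide 2 and by 0.58 to 0.66 on slide 3. Slide 1 did not overlap the others, but neither did it for 120 of the 172 miRNAs with at least 2 probes above background on all arrays (69.8%). The shift of slides 2 and 3 against slide 1 was 0.14 for rno-miR-378b and had a median of 0.25 over the 172. The probes of rno-miR-378a-5p differed by 0.03 to 0.22 on slide 1 and by 0.03 to 0.43 on the other slides, with an overlap.

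The 2 members rose and fell together from rat to rat within a slide. Pearson's r between them was 0.75 over the 24 arrays and 0.80 after the mean of each slide was subtracted. Taken slide by slide, with 8 arrays each, r was 0.89, 0.75 and 0.79. The 2 values of a rat share an array, an RNA extract and a scaling factor, and r is given as a description.

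After subtraction of slide means, each member was the miRNA most like the other among 283. By single slides, rno-miR-378b ranked 1, 5 and 7 in likeness to rno-miR-378a-5p, and rno-miR-378a-5p ranked 1, 14 and 3 in likeness to rno-miR-378b. The next most like rno-miR-378b were rno-miR-434-3p (r = 0.58) and rno-miR-210-3p (r = 0.57), and the same pair followed for rno-miR-378a-5p (both r = 0.58). miR-434 belongs to an imprinted cluster, and its group means, 3.65 to 4.00, lay near the floor. miR-210 is induced by low oxygen. The median r over all miRNAs was 0.07 for rno-miR-378b and 0.10 for rno-miR-378a-5p.

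Without that subtraction, rno-miR-378a-5p was most like rno-miR-210-3p (r = 0.93), rno-miR-22-3p (r = 0.93) and rno-miR-92a-3p (r = 0.92), with rno-miR-378b in place 41. Each of these 3 was itself higher on slide 2 than on slide 1, by 0.65 ± 0.11, 0.65 ± 0.07 and 0.70 ± 0.09. For rno-miR-378b the most alike were rno-miR-378a-5p (r = 0.75), rno-miR-210-3p (r = 0.71) and rno-miR-27a-3p (r = 0.63). The list of rno-miR-378a-5p thus changed in 2 of its 3 places with the handling of slides, and rno-miR-210-3p was in every list.

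**Figure D4:**
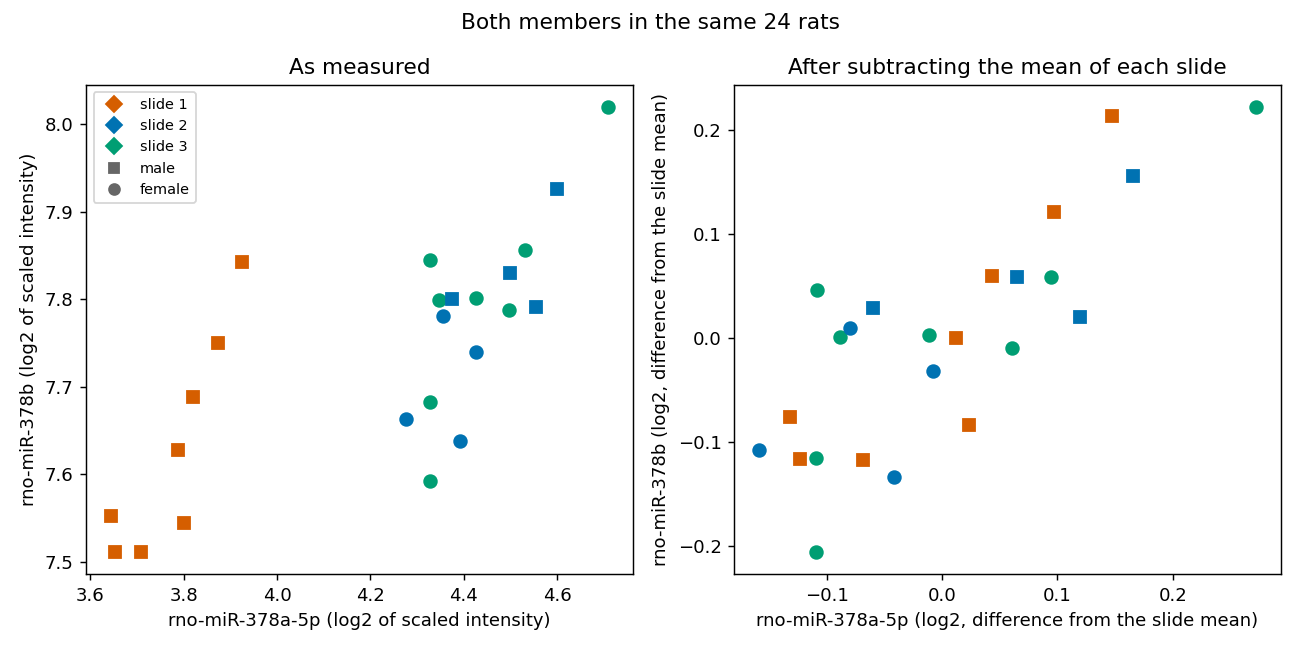
Level of rno-miR-378b (vertical) against rno-miR-378a-5p (horizontal) in the same 24 rats, as log2 of the scaled intensity (left) and after subtracting the mean of each slide (right), with colours for slides, squares for males and circles for females. On the left, slide 1 forms a band of its own, and on the right the rats lie along 1 trend with r = 0.80.

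No other miRNA listed for lipid and glucose metabolism passed the test at the 2 lower doses. Of 13 such miRNAs, all measured, 0 passed the test in either direction at 600 ppm or 1000 ppm, and their median differences from control were 0.04 and 0.02, against 0.02 and -0.01 over all miRNAs. Between the sexes, with slides ignored, 1 of 13 passed as higher and 1 as lower in males, where 124 of 283 miRNAs (43.8%) passed in either direction. Their median was -0.07, as over all miRNAs. rno-miR-33-5p, which lies in an intron of the sterol regulator gene Srebf2, was 0.24 ± 0.05 higher in males (limma adjusted p = 0.00113), and rno-miR-103-3p, a regulator of insulin signalling, fell by 0.21 ± 0.06 from females to males (adjusted p = 0.00761). With slide as a block neither passed, at 0.16 ± 0.09 (adjusted p = 0.339) and 0.05 ± 0.07 (adjusted p = 0.715). Slide 1 was all male and slide 3 all female. rno-miR-370-3p of the same list did pass with slide as a block, at -0.97 ± 0.25 (limma adjusted p = 0.0428), as 10 of 283 miRNAs (3.53%) did. It also passed within slide 2, at -0.76 ± 0.14 (adjusted p = 0.0199), where sex and dose cannot be told apart.

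Between slides 2 and 1, given dose and sex, 5 of these 13 miRNAs were higher and 2 lower on slide 2, where 110 of 283 miRNAs (38.9%) passed. rno-miR-103-3p was 0.41 ± 0.06 higher and rno-miR-27a-3p, which acts on fat cell formation, 0.28 ± 0.06 higher. rno-miR-33-5p, named above for its sex difference, fell by 0.20 ± 0.07 from slide 1 to slide 2. Of 5 miRNAs known from brown and white fat cells 3 passed the filter, and 0 of them passed the test at 600 or 1000 ppm, between the sexes or between slides 2 and 1. rno-miR-365-3p passed the test over all 3 slides (limma adjusted p = 0.0321).

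Because miR-378 is abundant in muscle, the striated muscle miRNAs are given beside it. Of 7, 4 passed the filter and rno-miR-206-3p, rno-miR-208a-3p and rno-miR-208b-3p did not. Their summed intensity was 175 to 410 in controls and 191 to 602 in the 600 ppm rats. The 1000 ppm rats had 213 to 1373 and the 1500 ppm rats 145 to 1205, so that the groups overlapped. By slide it ran from 200 to 602, from 145 to 810 and from 174 to 1373. Their part in the levels of the members was not tested.

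The red cell miRNAs are given by slide as well. The summed intensity of rno-miR-451-5p and rno-miR-144-3p ran from 2077 to 3149 on slide 1, from 1046 to 1865 on slide 2 and from 1404 to 2661 on slide 3. The listed rno-miR-486 was not tested. Slide 2 differed from slide 1, given dose and sex, for 110 of 283 miRNAs (38.9%). rno-miR-144-3p fell by 1.06 ± 0.25 from slide 1 to slide 2 given dose and sex (limma adjusted p = 0.00194), and rno-miR-451-5p differed by -0.46 ± 0.24 (adjusted p = 0.131), which did not pass. Their part in the slide difference of rno-miR-378a-5p was not tested, and in whole lung fewer cells of a type cannot be told apart from less RNA per cell.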

How the data were processed

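Lung RNA (100 ng per array, labelled with Cy3) was measured on 24 Agilent rat miRNA arrays with probe designs on rn4. The deposited files held a background-corrected intensity per spot, made with Agilent Feature Extraction 11.5.1.1 and not normalized between arrays. Each array had 14380 spots of 1730 probes. The deposited series table held the total gene signal, an unscaled intensity, and was used as an alternative. The paper supplied with the series describes other arrays, so no procedure for the miRNA values was taken from it.

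Control and outlier spots were left out. Intensities were divided by each array's percentile 75 over the 394 probes above background on all arrays, multiplied by 865, their geometric mean, and floored at 11.3 before log2, so that fold changes of dim miRNAs are understated. Probes with most spots above background on at least 6 arrays were kept, 555 in all, and averaged per miRNA.

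limma 3.58.1 in R 4.3.3 fitted all 24 arrays with dose means, with separate fits for sex, interaction and slide. Tests were two-sided, with Benjamini-Hochberg adjustment over 283 miRNAs and a threshold of 0.05. Permutation tests used scipy 1.17.1. The code was tested on simulated data. The slide was read from the array barcode. The labels name 1 rat per array, and the number of rats limits the precision. The members, the miRNA lists and the tests were chosen with earlier results of these data known. Named miRNAs were all members and the 3 most correlated miRNAs of each. The list members named were only in part those with the smallest p. miR-126 markers were taken under the array's names, miR-126a-3p and miR-126a-5p. Alternatives were other scalings, filters, floors and probe rules, normexp background correction on median spot brightness, the series table, slide and sex terms, single slides, and leaving out each rat. A fit with sex and slide together was added after the data were examined.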

Additional observations from a re-analysis of the deposited data

Results flagged for a closer look

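Male 7 at 600 ppm stood apart from its group in rno-miR-378b. Its level of 7.55 lay under the other 5 rats, which averaged 7.78 ± 0.04 (SD), and its gap to the nearest rat was 0.646 of the range of the group, past Dixon's critical value for 6 rats. Over 12 groups of 6 values compared, 1 such gap was found, and chance gives about 1 in 20 groups.

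The response of rno-miR-378a-5p to 1500 ppm differed between the sexes by 0.60 ± 0.23 on the log2 scale (males minus females, limma adjusted p = 0.0487). With slide as a block the value was -0.20 ± 0.25 (adjusted p = 0.868).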

How the results depend on the processing

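No paired analysis was possible because the groups share no replicate numbers. The comparison of 1500 ppm with control has no value within a single slide and sex, because the slides never paired these rats. For rno-miR-378a-5p the difference between 1000 ppm and control turned to -0.13 with normexp, -0.0268 with sex and slide as covariates and -0.0548 within males of slide 1. The difference between 1000 and 600 ppm turned to -0.53 with normexp, -0.0729 with sex and slide, -0.0393 with slide as a block, -0.0237 with slide as a random block, -0.0931 within males of slide 1 and -0.0662 within females of slide 3. Its sex difference turned to 0.16 with slide as a block and 0.14 within slide 2, and lost the call with normexp (-0.41), the series table (-0.20) and slide as a random block (-0.12). Its interaction passed with the percentile over all probes (F = 5.12) and quantile normalization (F = 5.21), but not with slide as a block (limma adjusted p = 0.981). Its interaction at 1500 ppm turned to -0.27 in the series table and -0.20 with slide as a block, and lost the call in 5 others, at 0.60 with the floor of 1, 0.60 without the filter, 0.52 with normexp, 0.38 with the total gene signal and 0.16 with slide as a random block, and its description at 1500 ppm moved to 0.0045 with sex and slide.

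For rno-miR-378b the difference between 1000 ppm and control turned to -0.0252 with normexp, -0.0028 with sex and slide and -0.0115 within males of slide 1, and that between 1000 and 600 ppm to 0.0626 in the series table. Its sex difference turned to 0.13 in the series table, 0.0474 with slide as a block, 0.037 with the total gene signal and 0.13 within slide 2. Slide passed with normexp (F = 5.05), the percentile over all probes (F = 5.72) and the series table (F = 8.71). Its interaction at 1500 ppm turned to -0.0894 with slide as a block, -0.0147 with slide as a random block and -0.15 with the total gene signal. In the series table that interaction turned to -0.80 and passed (limma adjusted p = 0.0103), with control males and control females on different slides. The description at 1500 ppm moved to -0.0273 in the series table. The difference between members from 600 to 1000 ppm turned to 0.25 with normexp, and that between the sexes was 0.24 with normexp, where the call was lost, and -0.013 within slide 2. The cause was not tested.

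Leaving out each rat gave, for rno-miR-378a-5p, -0.0326 to 0.17 between 1000 and 600 ppm (negative without rats 7, 13 or 33) and F of 2.36 to 11.4 for the interaction. The sex call of rno-miR-378a-5p, -0.45 to -0.35, and its slide call held in all 24. The number of miRNAs passing the test of sex ran from 0 to 147 over the other alternatives, that of the interaction from 0 to 102 and that of slide from 106 to 221. rno-miR-378a-5p is dim, which limits its precision.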
